A study of Mus musculus with 2 samples.

Results

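Kelch-BTB and F-box proteins are the substrate adaptors of cullin-RING ubiquitin ligases, and their transcripts were examined in tibialis anterior, the muscle at the front of the shin, which is made up largely of fast fibres. Members were the genes whose name on the array begins with Klhl, Kbtbd, Fbxl, Fbxo or Fbxw followed by a digit, with 4 names (Fbxo21, Fbxo30, Fbxo31 and Fbxo32) left out. The name rule gave 117 of the 24082 gene symbols on the array, and 81 of the 117 had a probe well above background on both arrays. One of the 81, Fbxl12os, is a non-coding transcript from the opposite strand of an F-box gene and encodes no adaptor; without it 80 members were measured. The rule reads gene names and takes no measured difference as a criterion.

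Total RNA came from adult male C57BL/6 mice, from 1 control mouse and from 1 mouse carrying activated Notch2 (the Notch2 intracellular domain, N2ICD) as a transgene, labelled N2ICD-mTG. Each sample was hybridised with a single dye to 1 array. The labels name neither the promoter that drives the transgene nor the alleles of the control mouse, and the title of the series asks about Notch2 made by the fibres, fibre type and muscle mass. With 1 array in each group, the differences below have no replicate check and no test, and genotype, animal, dissection and array cannot be told apart.

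A cullin-RING ligase is assembled on a cullin scaffold. One end of the cullin holds the RING protein that brings the ubiquitin-loaded conjugating enzyme, and the other end holds the adaptor that chooses the protein to be tagged. Kelch-BTB proteins (Klhl and Kbtbd) bind Cul3 through their BTB domain and the substrate through their kelch repeats. F-box proteins bind Cul1 through the linker Skp1 and are sorted by their substrate-binding part into those with leucine-rich repeats (Fbxl), with WD40 repeats (Fbxw) and with other domains (Fbxo). Several Kelch-BTB proteins are restricted to striated muscle, where they control or protect proteins of the sarcomere.

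The probe sequences show how narrowly each transcript was read. A member had 1 to 3 probes of 60 bases, and 63 of the 81 measured members rested on 1 measured probe. The first 30 bases are printed below for the 3 members past 2-fold, and for Fbxo40 and Kbtbd12, whose probes gave unlike values.
Klhl30 (chr1:93258755-93258814, mm9, plus strand): ccctggggtgtgtcaaaagcttgcttccgg
Fbxw9 (chr8:87590199-87590258, plus strand): atcacagggatcaaacactcgctggggact
Fbxo9 (chr9:77929465-77929524, minus strand): gttgaaatcatgttttcaagcaggtttctg
Fbxo40, transcript position 2330 (chr16:36966287-36966346, minus strand): caaaaatcaacagctgggagtttaatgacg
Fbxo40, position 4000 (chr16:36964623-36964682, minus strand): cgagaggaaagcgagctctttgggtctcga
Kbtbd12, position 842 (chr6:88568103-88568162, minus strand): tttctaagacaggccatcagaaggaacacg
Kbtbd12, position 1422 (chr6:88563905-88563964, minus strand): ttccactgcagctggcttgtcatgctgtgg
Kbtbd12, position 1562 (chr6:88563762-88563821, minus strand): gtagtaaagatgatggctgacattttgaca
All lie within the named gene per the file annotation, and whether it is coding or untranslated there was not determined. Position 4000 of Fbxo40 and position 1562 of Kbtbd12 are counted on other annotated transcripts than the remaining positions of these genes. The 160 member probes had 160 distinct sequences.

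The control array had 24916 spots well above background and the N2ICD array 24982, of 59305 apart from control spots, with 0 saturated. Values below are processed signals, or the log2 difference N2ICD minus control after each array was scaled to its 75th percentile, at signals of 169 and 190; equal signals on both arrays therefore give a difference of -0.17. Repeated spots of one probe varied with an SD of 0.14 on the log2 scale over 267 probes, falling from 0.25 among the dimmest group of 4 to 0.05 among the brightest. Probes of one gene varied with an SD of 0.26 over the 18 members that had several measured probes. These SDs come from the same pair of arrays and leave out the spread between mice. The SD between probes also compares different stretches of a transcript, so it is not array noise alone. When the E1A spike-in controls set the scale, the median of all genes moved up by 0.48, so a member below 0 by less than that changed direction there.

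All 12 muscle fibre markers were measured on both arrays, and their median difference was -0.21 (0.27 on the spike-in scale). Of these, 2 were above 0, with Myh2 at 1.30. Notch2 was read by 2 probes: signals went from 189 (control) to 179 (N2ICD) on the one, and from 6.01, not well above background, to 221 on the other. Slow fibre genes had a median of 0.65, and 7 of 9 were above 0. Their summed level was 244 times the array's 75th percentile in control and 487 in N2ICD. Most of that sum was Myl3 (signals of 34617 and 75742). The largest differences were those of Myh7 at 2.21 (154 and 805) and Myoz2 at 1.80 (3531 and 13900), while Myl2 at -1.15 and Casq2 at -0.60 were below 0. The medians of fibroblast (9 of 9 measured, 3 above 0, median -0.31, summed level 633 and 510), macrophage (6 of 7 measured, 2 above 0, -0.33, 9.40 and 7.24) and endothelial markers (6 of 6 measured, 1 above 0, -0.32, 42.0 and 33.5) were below 0, and all 3 were above 0 on the spike-in scale. The medians of smooth muscle, Schwann cell, erythroid and adipocyte markers lay between -0.12 and 0.15. That of satellite cell markers was 0.73 (5 of 6 measured, 4 above 0, summed level 62.5 and 160). Itga7, also made by fibres, was at 1.49 and made up most of that sum. Sdc4 was at 0.86, Cdh15 at 0.73, Pax7 at 0.14 and Vcam1 at -0.31. Of the markers listed for other cell types, Ptprc, Lep and Myf5 were among those not well above background on both arrays. The part of cell makeup in the member differences was not tested, and in whole muscle fewer cells of a type and less RNA per cell cannot be told apart.

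As a class, the adaptors differed little between the arrays. The 81 differences had a median of 0.05, quartiles of -0.17 and 0.21 and an SD of 0.37, and all 12518 genes measured on both arrays had a median of 0.004, quartiles of -0.19 and 0.19 and an SD of 0.38. Above 0 were 43 members (53.1%), beside 50.5% of all genes, and below it 38. Of the 38, 32 changed direction on the spike-in scale and 10 with median scaling. Within 2 SD of the spot noise lay 52 members, or 64.2%, as did 67.1% of all genes.

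Only Fbxw9, Fbxo9 and Klhl30 had a difference of at least 2-fold, each with the higher signal on the N2ICD array. They make 3.70% of the measured members, and 1.45% of all genes measured reached that difference in that direction. At least 2-fold lower were 0 members, against 0.919% of all genes. Klhl30 at 1.02 lay just inside 2-fold, and on the other side of 0 Fbxl19 at -0.81 lay nearest to it. At 1.5-fold 4 members were higher and 3 lower, which is 4.94% and 3.70% of the members and close to the 5.17% and 4.75% of all genes.

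Fbxw9, a WD40-repeat F-box protein, went from a signal of 51.3 in control to 153 in N2ICD, a 2.64-fold difference (log2 1.40). Its control signal was among the dim ones, and with normexp background correction the difference was 0.69, under 2-fold. Fbxo9, an F-box protein known for acting on regulators of mTOR signalling, had signals of 504 and 1200, a 2.11-fold difference (log2 1.08). It stayed at or above 2-fold with every scaling and background method run, just past 2-fold with normexp and at 1.56 on the spike-in scale. Klhl30, a Kelch protein expressed in skeletal muscle, had signals of 7474 and 17085, a 2.03-fold difference (log2 1.02). That value was 0.96 with quantile normalization and 0.97 with loess, so its place past 2-fold depended on the scaling, while its direction did not. Each of the 3 rests on 1 probe with 1 spot on each array.

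**Figure D1:**
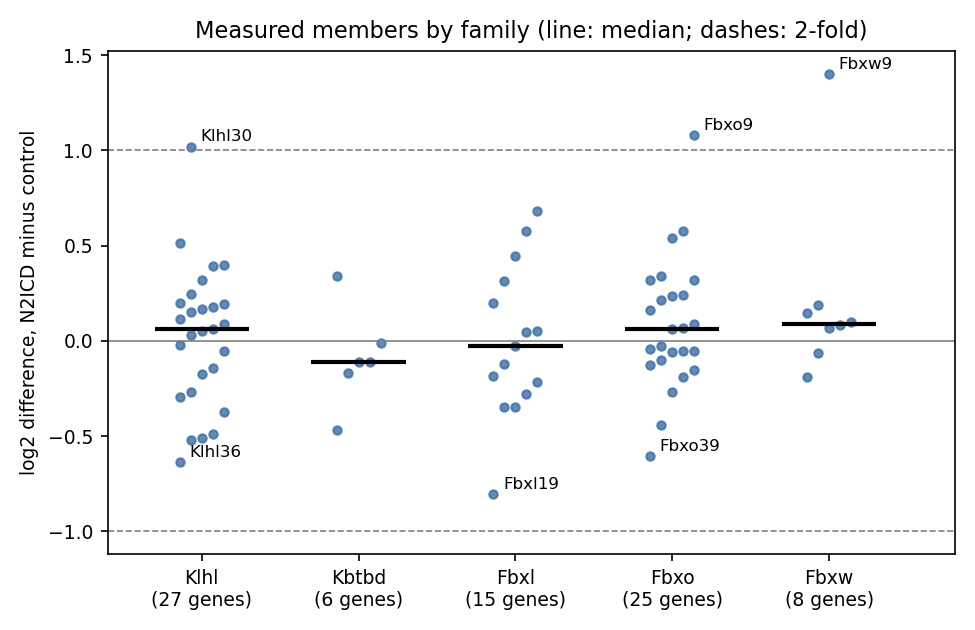
Log2 difference (N2ICD minus control, vertical axis) of the 81 measured members by family; each point is 1 gene, the thick line is the family median and the dashes mark 2-fold. Only Fbxw9, Fbxo9 and Klhl30 lie past 2-fold, and of the points below 0, 32 of 38 are above 0 on the spike-in scale.

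The family medians were close to 0. Klhl had a median of 0.06 with 16 members above 0 and 11 below, Fbxo 0.06 with 13 and 12, and Fbxw 0.09 with 6 and 2, which were 0.54, 0.54 and 0.57 on the spike-in scale. Fbxl had -0.03 with 7 and 8, which was 0.01 with normexp, 0.04 with median scaling and 0.45 on the spike-in scale. Kbtbd had -0.11 with 1 and 5, which was 0.37 on the spike-in scale.

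**Figure D2:**
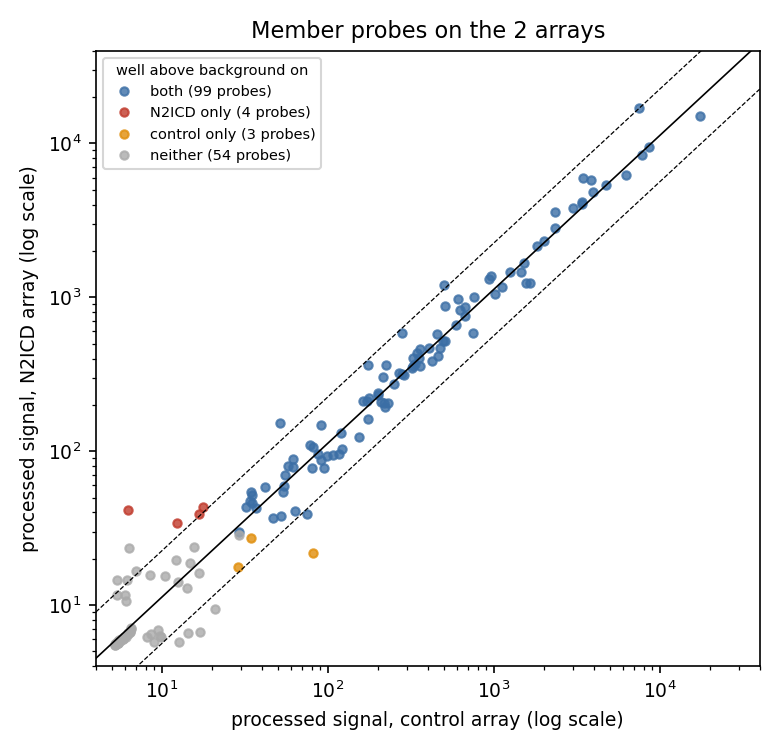
Processed signal of the 160 member probes on the control array (horizontal) and the N2ICD array (vertical), both on log scales; the line marks no difference after scaling, the dashes mark 2-fold, and colours mark the arrays on which a probe was well above background. Most of the 99 probes measured on both arrays lie near the line over the whole range of signals, and the spread widens at low signals.

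The adaptors linked to striated muscle were all measured, 10 of 10, and their values spread to both sides of 0. Their median was 0.18, with 6 above 0. Klhl41, which stabilises the thin-filament protein nebulin and underlies nemaline myopathy when lost, had signals of 3870 and 5756, a difference of 0.40. Klhl40, its relative that stabilises nebulin and leiomodin 3 and also underlies nemaline myopathy, had 3961 and 4836, a difference of 0.12. Both of these nebulin-binding adaptors kept their direction with every scaling run.

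Klhl34 and Klhl38, Kelch proteins expressed in muscle, were above 0 with every scaling run. Klhl34 had signals of 606 and 974, a difference of 0.51, and Klhl38 had 622 and 832, a difference of 0.25. Klhl31, a Kelch protein of muscle that acts on filamin C, was the lowest of the 10 at -0.49. Its probes agreed, with signals of 1656 and 1242 on the one (-0.59) and 17439 and 14966 on the other (-0.39), but on the spike-in scale the mean difference was -0.01. Klhl30 and Klhl31 thus lay at the ends of the muscle group, 1.02 against -0.49, and stayed on their own sides of 0 with every scaling run.

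Fbxo40, a muscle F-box protein that targets the insulin receptor substrate Irs1, gave values that depended on the probe. The probe at position 4000 had signals of 3439 and 5948, a difference of 0.62, and the one at position 2330 had 407 and 465, a difference of 0.02. The gap between these probes was among the widest of any member, and their mean was 0.32. Fbxl22, an F-box protein of the sarcomere Z-disc, had 107 and 94.6, a difference of -0.35 that turned to 0.13 on the spike-in scale.

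The muscle Kbtbd genes showed no difference that their probes shared. Kbtbd13, a nemaline myopathy gene, had 464 and 414 on one probe (-0.34) and 57.1 and 79.8 on the other (0.31), so that the mean of -0.01 hides opposite values. Kbtbd12 had 280 and 315 at position 1422, equal after scaling, and 91.2 and 87.8 at position 842 (-0.23). Its probe at position 1562 rose well above background in N2ICD alone, with signals of 6.26 and 41.6, which gives a level at least 1.44-fold higher in N2ICD. That bound and the other Kbtbd12 probes point different ways, although the probes at 1422 and 1562 are neighbours in the genome. The bound is 0.53 in log2, beside an SD of 0.25 for repeated spots in the dimmest group, and position 1562 is counted on another annotated transcript.

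**Figure D3:**
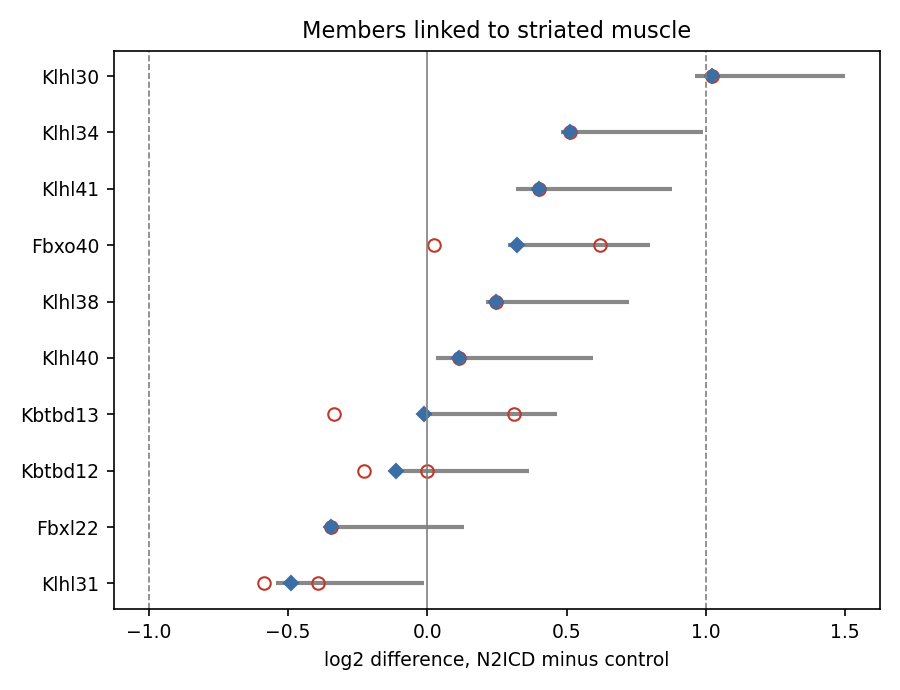
Log2 difference (N2ICD minus control, horizontal axis) of the 10 members linked to striated muscle; diamonds are gene values, open circles the probes behind them, grey bars the range over 5 other scalings and dashes 2-fold. Klhl30, Klhl34, Klhl41, Fbxo40, Klhl38 and Klhl40 stay above 0 over the bars, Klhl31 stays below, and the bars of Fbxl22, Kbtbd12 and Kbtbd13 reach above 0.

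Among the other Kelch-BTB members the low values came from Klhl36, Klhl2, Klhl8, Kbtbd11 and Klhl13. Klhl36 had signals of 52.3 and 37.9 (-0.64) and Klhl2, an actin-binding adaptor that acts on WNK kinases, 47.0 and 36.8 (-0.52). Both are dim, and they were -0.16 and -0.04 on the spike-in scale and -0.33 and -0.38 with normexp. Klhl8 had the much brighter signals of 1560 and 1232 (-0.51), and -0.03 on the spike-in scale. Kbtbd11 had 117 and 95.5 (-0.47, and -0.29 with normexp) and Klhl13 222 and 193 (-0.37), and both were above 0 on the spike-in scale. Kbtbd7, which acts on a Rac exchange factor, was the highest of its family at 0.34, with signals of 62.0 and 88.5, and 0.14 with normexp.

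The mitotic adaptors that act on Aurora B did not move as a set. Klhl9 had signals of 3012 and 3812 (0.17), Klhl21 6251 and 6252 (-0.17) and Klhl13 the -0.37 above, and the values below 0 turned positive on the spike-in scale. Klhl3, the WNK kinase adaptor of the kidney, was near background at 29.3 and 29.9 (-0.14, and above 0 on the spike-in scale). Klhl12, which acts on the coat of vesicles leaving the endoplasmic reticulum, was at 0.09, Klhl7 at 0.20, Klhl24 at 0.15, Klhl22 at 0.06, Klhl25 at -0.02, Klhl20 at -0.27 and Kbtbd2, which acts on a subunit of PI3 kinase, at -0.17. The last 3 were above 0 on the spike-in scale, and Klhl25 with median scaling as well.

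The leucine-rich-repeat family held the lowest value of all members. Fbxl4, a mitochondrial protein whose loss causes mitochondrial DNA depletion, agreed between its probes, with 506 and 877 (0.62) and 223 and 364 (0.54).

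Fbxl19, a protein that binds unmethylated CpG islands, had signals of 75.2 and 39.2 on one probe (-1.11) and 154 and 123 on the other (-0.50), a mean of -0.81. The direction held on the spike-in scale, at -0.33, and with normexp, at -0.42. Fbxl20, a regulator of neurotransmitter release, had probes at -0.51 and -0.19, a mean of -0.35 that was above 0 on the spike-in scale. Fbxl5, the iron sensor that targets Irp2, was at -0.18, also above 0 on that scale, and Fbxl14, the member with 8 spots on each array, was at 0.20 with an SD between spots of 0.04. Fbxl12os had signals of 2349 and 3601 (0.44) on 1 of its 3 probes, and its other two were not above background.

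The F-box proteins with other domains include a small group that binds the sugar chains of glycoproteins, Fbxo2, Fbxo6, Fbxo17, Fbxo27 and Fbxo44. Their genes lie in tandem, Fbxo2, Fbxo6 and Fbxo44 within 20.6 kb of chromosome 4 (mm9, 147519897 to 147540515, by probe positions) and Fbxo17 and Fbxo27 within 38.9 kb of chromosome 7 (29484211 to 29523151). The pair on chromosome 7 was above 0, with Fbxo17 at 0.57 (signals of 281 and 589, and of 32.0 and 43.1) and Fbxo27 at 0.23 (35.0 and 46.4), which was -0.03 with normexp. The 3 genes on chromosome 4 were below 0, with Fbxo2 at -0.44 (94.4 and 78.3), Fbxo44 at -0.19 and Fbxo6 at -0.03 (8594 and 9510), and all 3 turned positive on the spike-in scale, as did Fbxo6 with median scaling and with normexp. Fbxo6, Fbxo27 and Fbxo44 lay within 2 SD of a repeated spot.

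Other Fbxo members were mostly near 0. Fbxo45, an adaptor studied in neurons, had signals of 90.3 and 148 (0.54), and Fbxo39 had 121 and 104 on one probe (-0.40) and 63.4 and 40.8 on the other (-0.81), a mean of -0.60 and -0.13 on the spike-in scale. With normexp Fbxo45 was at 0.33 and Fbxo39 at -0.29. Fbxo7, a gene of inherited parkinsonism, was at -0.05, Fbxo3 at -0.06 and Fbxo25, a relative of the atrophy-linked Fbxo32, at -0.10; all 3 were above 0 on the spike-in scale, and Fbxo7 and Fbxo3 with median scaling as well.

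The WD40-repeat members with well-known substrates showed small differences beside that of Fbxw9. Fbxw7, which targets cyclin E, Jun, Myc and the intracellular domain of Notch itself, had signals of 358 and 459 on one probe (0.18) and 86.8 and 96.3 on the other (-0.02), a mean of 0.08. Fbxw11, which with Btrc targets phosphorylated beta-catenin and I-kappa-B, had 4738 and 5369 on one probe (0.01) and 3395 and 4190 on the other (0.13). Fbxw5 was at -0.06 (7848 and 8466) and Fbxw17 at -0.19, the lowest of the family; both were above 0 on the spike-in scale, and Fbxw5 with median scaling as well. All 7 measured Fbxw members other than Fbxw9 lay within 2 SD of a repeated spot.

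Fewer Fbxw genes were detected than genes of the other families. Well above background on both arrays were 8 of 21 Fbxw genes (38.1%), 27 of 36 Klhl, 6 of 8 Kbtbd, 15 of 19 Fbxl and 25 of 33 Fbxo genes, against 52.0% of all gene symbols and 69.2% of all members. Much of that gap sat in a single cluster. A tandem array of Fbxw genes occupies 631 kb of chromosome 9 (mm9, 109042040 to 109672648), and of its 12 genes, read by 15 probes, 0 were measured on both arrays. Fbxw13 alone passed on 1 array, the control.

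**Figure D4:**
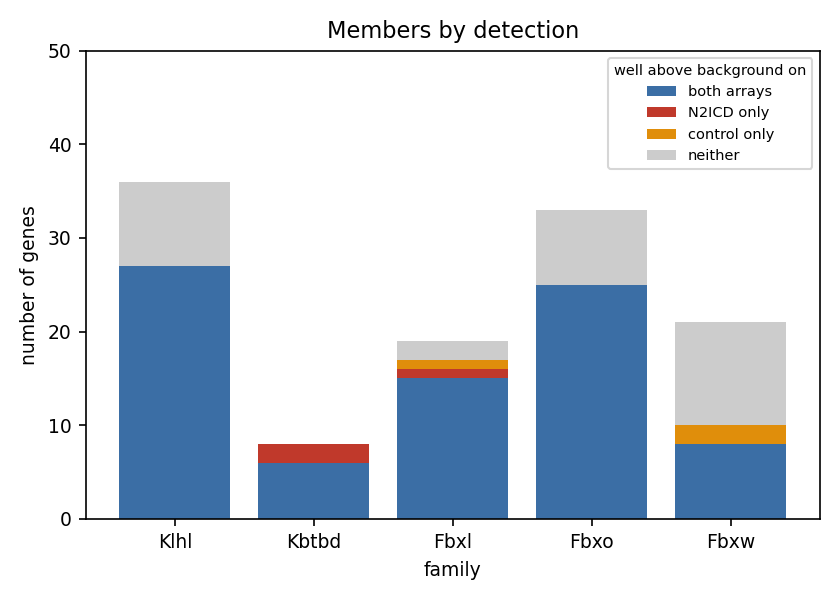
Number of genes in each family (bars start at 0), stacked by the arrays on which at least 1 probe was well above background. The Fbxw bar has 8 genes on both arrays and 11 on neither, and Klhl, Kbtbd, Fbxl and Fbxo have most of their genes on both.

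Members seen on 1 array alone are given as bounds, the brighter value over the lowest signal well above background on the other array, or over the dim signal itself where that was higher. Fbxw13 read 81.8 in control and 21.8 in N2ICD, at least 3.40-fold lower in N2ICD and at least 2.44-fold lower on the spike-in scale. That is the widest bound among the members, from 1 probe. Fbxl18 (34.4 and 27.3) was at least 1.42-fold lower and Fbxw10 (28.9 and 17.6) at least 1.20-fold lower, but on the spike-in scale the first fell to 1.02-fold and the second gave no bound in that direction. In the other direction Fbxl2 (17.7 and 43.4) was at least 1.5-fold higher, Kbtbd3 (16.7 and 39.4) at least 1.36-fold and Kbtbd8 (12.4 and 34.1) at least 1.18-fold. All of these bounds take each signal as exact. Those of Fbxw10 (log2 -0.26), Kbtbd3 (0.45) and Kbtbd8 (0.24) lay within 2 SD of repeated spots in the dimmest group (SD 0.25). A further 30 members were not well above background on either array, which gives no level for them. Of the 117 members 87 were well above background on at least 1 array and 81 on both. Of all 24082 gene symbols these were 13389 and 12518.

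Agreement between probes could be checked for 18 members. In 15 the probes had the same sign and in 3 (Kbtbd13, Fbxw2 and Fbxw7) opposite signs. The median gap between the highest and lowest probe was 0.26 and the widest 0.65, and 9 of the 18 gaps were over 2 SD of a repeated spot.

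The machinery that the adaptors share was read from 5 lists of cullins, RING and linker subunits, conjugating enzymes, exchange factors and further adaptors. The lists held 62 names, among them both an older and a newer name for Skp1a, Tceb1 and Tceb2. On the array were 59 of the names, and 51 were measured. Of the 51, 31 (60.8%) were above 0 and 20 below, beside 50.5% of all genes above 0. The median was 0.03 (-0.02 with quantile normalization). At 2-fold were 0 in either direction, and at 1.5-fold 3 (5.88%) were higher and 0 lower. Over all genes these shares were 1.45% and 0.919% at 2-fold, and 5.17% and 4.75% at 1.5-fold, so the 3 are close to the background. Cul3, the scaffold of all Kelch-BTB ligases, was at 0.64, and Cul1, the scaffold of the F-box ligases, at 0.26. The other high values came from Cops2 (0.79), a subunit of the COP9 signalosome that removes Nedd8 from cullins, and Enc1 (0.61), a Kelch-BTB protein outside the name rule. The Cops2 probes read 0.45 and 1.13, so that the second alone was past 2-fold and their mean was not. Cul7 was the lowest cullin at -0.31 (above 0 on the spike-in scale), and the median of the 8 cullins was 0.19 (0.04 with normexp and 0.67 on the spike-in scale).

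The RING and linker subunits had a median of 0.15, from -0.34 for elongin B (listed as Tceb2; 0.14 on the spike-in scale) to 0.44 for Rnf7, the RING protein of Cul5; Rbx1, the RING protein of the other cullins, was at 0.02 (and on either side of 0 with other scalings) and Skp1a at 0.24. The conjugation enzymes of ubiquitin and Nedd8 had a median of 0.08 and the exchange and deneddylation group -0.01 (0.47 on the spike-in scale). Adaptors outside the name rule had 0.01, with Keap1, the sensor of oxidative stress, at 0.18 and Btrc at 0.01. Of the 12 genes of the exchange group, those other than Cops2 ran from -0.41 (Cops7b, 0.07 on the spike-in scale) to 0.09 (Cops5).

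**Figure D5:**
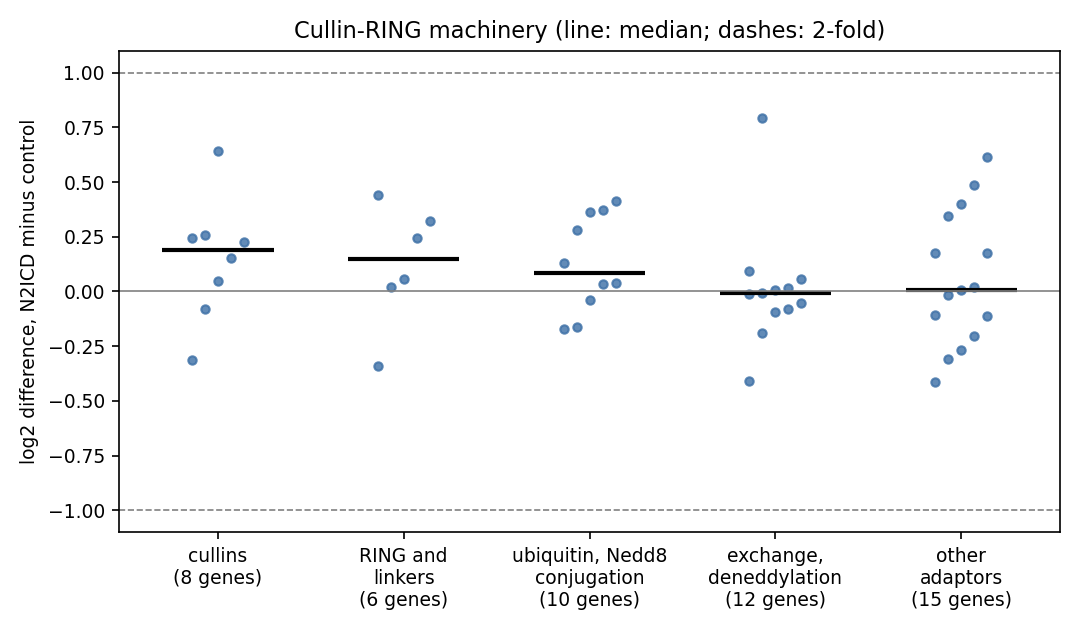
Log2 difference (N2ICD minus control, vertical axis) of the 51 measured genes of the shared ligase machinery in 5 lists; points are genes, thick lines medians and dashes 2-fold. No point reaches 2-fold, and the highest are Cops2 and Cul3; on the spike-in scale the median of the 51 is 0.51 in place of 0.03.

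Transcripts of known substrates and partners were measured for 15 of 18 listed genes, with a median of 0.16. Among the sarcomere genes of that list, leiomodin 3 was at 0.41, leiomodin 2 at 1.22 and the Klhl41 partner Nrap at 0.39. Nebulin was at 0.16, filamin C at 0.59 and alpha-actinin 2 at 0.76. All 6 were above 0. Of the adaptors tied to some of them, Klhl40 (0.12) and Klhl41 (0.40) were above 0 too, and Klhl31 (-0.49) and Fbxl22 (-0.35, 0.13 on the spike-in scale) below. Irs1, the target of Fbxo40, was at -0.53 with both probes below 0, and -0.05 on the spike-in scale. Of the Fbxw7 targets Jun was at 0.65, Myc at -0.20 (0.28 on the spike-in scale) and cyclin E1 at -0.88. Jun and cyclin E1 were beyond 2 SD of a repeated spot and on opposite sides of 0. All of these are transcript levels. Protein was not measured, and whether any adaptor acted on its substrate was not tested.

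Promoters are shown for the members that differed most and for a pair of muscle members on opposite sides of 0, as the 250 bases before the start in RefSeq (GRCm38.p6); Klhl30 is named only. Motifs searched on both strands were the E-box CAGCTG bound by myogenic factors, TGGGAA, the core bound by the Notch effector Rbpj, and the MEF2 motif. In capitals are the matches.
Fbxw9 (chr8:85059869-85060118, plus strand): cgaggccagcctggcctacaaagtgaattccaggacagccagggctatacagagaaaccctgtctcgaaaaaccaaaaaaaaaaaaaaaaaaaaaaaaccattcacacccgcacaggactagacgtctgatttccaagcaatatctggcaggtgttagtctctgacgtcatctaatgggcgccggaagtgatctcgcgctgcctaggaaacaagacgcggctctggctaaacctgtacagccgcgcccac
Fbxo9 (chr9:78109066-78109315, minus strand): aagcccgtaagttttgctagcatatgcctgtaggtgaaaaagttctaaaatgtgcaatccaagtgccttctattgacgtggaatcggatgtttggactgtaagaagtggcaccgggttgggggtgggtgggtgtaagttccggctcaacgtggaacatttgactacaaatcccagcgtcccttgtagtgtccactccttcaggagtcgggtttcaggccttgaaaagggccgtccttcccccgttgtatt
Klhl41 (chr2:69669870-69670119, plus strand): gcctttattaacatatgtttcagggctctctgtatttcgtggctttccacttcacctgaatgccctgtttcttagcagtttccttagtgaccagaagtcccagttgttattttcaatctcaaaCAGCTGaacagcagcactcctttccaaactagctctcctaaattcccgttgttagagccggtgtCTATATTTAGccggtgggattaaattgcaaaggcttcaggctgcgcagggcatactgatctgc
Klhl31 (chr9:77636482-77636731, plus strand): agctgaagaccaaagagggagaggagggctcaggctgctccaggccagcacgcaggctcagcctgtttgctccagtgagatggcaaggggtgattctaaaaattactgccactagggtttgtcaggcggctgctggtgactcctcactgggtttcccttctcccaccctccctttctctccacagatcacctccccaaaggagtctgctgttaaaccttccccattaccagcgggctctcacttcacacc
Klhl41 had CAGCTG at -127 and a MEF2 match at -63 from its start, and the other 3 windows held none of the motifs. Over windows of 300 bases (250 before and 50 after the start), TGGGAA was in 26.0% of 123 member windows and 25.6% of all 32851, and MEF2 in 3.25% and 3.19%. CAGCTG was in 27.6% of member windows and 16.3% of all. All 10 windows of 9 genes of the Fbxw cluster on chromosome 9 held CAGCTG, and without them it was in 24 of 113 member windows (21.2%). Among other muscle members, Klhl34, Klhl40 and Fbxo40 held CAGCTG, and Fbxo40 also TGGGAA and MEF2. Kbtbd12, below 0, held MEF2, and Kbtbd13 and Fbxl22 held none of the motifs. A match is a description of these letters and no sign of binding.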

How the data were processed

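Total RNA of 1 control and 1 N2ICD tibialis anterior was measured on 1 array each; groups came from the sample labels. Per the file headers, the authors' scanner software was Agilent Feature Extraction (version 10.10.1.1), which gave each spot an intensity: signals are background-subtracted within an array and not normalized between arrays, and probe coordinates are on mm9. The authors' deposited table holds a fold (ratio) without sign, a direction, and an intensity and log2 value for each array, the latter used as an alternative. Its making is not described in the sources used here.

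The processed signal in log2, less the 75th percentile of all spots but controls on its array, gave the level. Control spots and 215 spots flagged as outliers on either array were left out, spots of one probe were averaged, and probes well above background on both arrays were averaged for each gene. A probe above background on 1 array alone gave a bound: the brighter value over the higher of the dim value and the lowest signal well above background, 25.7 in control and 27.1 in N2ICD. Names are those in the files; 149 of 160 member probes matched a RefSeq accession in a table of GRCm38.p6, which renames 2 of them (Fbxo18 is now Fbh1). Promoter windows came from RefSeq for 91 of 117 members.

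No test was run with 1 array in each group. Some genes that met the naming rule are not reported here. Members, lists and alternatives were chosen with earlier results of these data known. Named were members fixed by name or role, those past 2-fold, the 10 largest differences and 3 largest bounds in each direction, the extremes and brightest of the families, and up to 4 genes of each list by size. Keap1, Btrc, Rbx1, Skp1a, Cul1, Neb, Lmod3, Nrap, Flnc, Irs1, Myc, Cops5 and some cell type markers were named after their values were seen. In arrays simulated with the spot noise alone, 97 of 97 genes changed by 1.5 (log2) and 103 of 103 changed by 3 passed 2-fold. Of 12318 unchanged genes 0 did, over 12518 genes. These sizes lie far from the 2-fold cutoff next to the spot noise, which leaves out the spread between mice. How often an unchanged gene passes 2-fold between mice was not tested. Loess, quantile and normexp ran in limma 3.58.1 under R 4.3.3, and the rest in Python 3.11.15 with pandas 2.3.3 and numpy 2.4.6.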

Additional observations from a re-analysis of the deposited data

How the results depend on the processing

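The direction and size of the members' values depended most on the scale. Set by the 7 E1A spike-in probes, the members' median was 0.53 in place of 0.05, with family medians of 0.54 (Klhl), 0.37 (Kbtbd), 0.45 (Fbxl), 0.54 (Fbxo) and 0.57 (Fbxw), a median of 0.51 for the shared machinery and 7 members at least 2-fold higher; over all genes 831 were then 2-fold higher and 24 lower, in place of 182 and 115. The spike-in scale adds the same amount to every gene, so it shifts these values by construction. Letting in probes that were above background on either array gave 6 members higher and 1 lower (334 and 307 of 13389 genes) and a Kbtbd median of 0.16. No filter gave 7 higher and 3 lower (720 and 812 of 24078 genes) and turned the members' median to -0.05 and those of Kbtbd to 0.16, Fbxl to 0.04, Fbxo to -0.05, Klhl to -0.07 and Fbxw to -0.0900; the cause was not tested beyond the dim probes that both settings let in. At 4-fold 0 members were higher, and no share of all genes is given at that cutoff. At 1.5-fold 3 members were lower (3.70%, beside 4.75% of all genes). Normexp left 2 members and, over all genes, 77 higher and 41 lower. Quantile normalization and loess left 2 members each, beside 187 higher and 105 lower over all genes with the first. With loess 195 of all genes were higher and 99 lower. Of the 46 named members measured, 10 moved by more than the spot noise with normexp, 7 with the brightest probe, 7 with no filter, 1 with the looser filter and 46 on the spike-in scale, and 0 with median scaling, the percentile over bright spots, quantile normalization, loess, outlier spots kept or the authors' deposited table, although median scaling changed the sign of 10 members near 0. No paired analysis was possible because each group has 1 array. Signal over background limits what can be said of the 30 members not well above background on either array, and repeated spots of the dimmest probes had an SD of 0.25.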
